A study of Mus musculus with 9 samples.

Results

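The genes described here are 50 mouse genes of DNA replication and S phase, measured by bulk RNA-seq in pre-cDCs, the committed precursors of conventional dendritic cells. They were chosen by name, as a list of factors that license, copy and package DNA, and were looked up by symbol in the GENCODE M21 annotation of GRCm38. All 50 were found among the 51912 genes of the count table, and all 50 passed the filter on low counts in every comparison. The study compared pre-cDCs with and without DNGR-1, the receptor for F-actin exposed by dead cells that Clec9a encodes, in the tissue where they arise and in a tissue to which they migrate. Its 9 samples comprise 6 of BM, 3 for each genotype, and 3 of spleen, of which 1 is WT and 2 are DNGR-1 KO.

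WT and DNGR-1 KO cells developed side by side in mixed BM chimeras, lethally irradiated CD45.1/2 recipients that received equal parts of BM from BL/6 mice marked by CD45.1 (the WT cells) and from Clec9a Cre/Cre mice marked by CD45.2 (the DNGR-1 KO cells). Every group therefore shares an irradiated host, and the genotypes also differ in the CD45 congenic background, so that allele and background cannot be told apart. The labels conflict on the marker of the WT cells, since their descriptions say CD45.2, whereas the source names and the study's text say CD45.1. The DNGR-1 KO cells carry Cre at the Clec9a locus on both alleles. Each sample pooled sorted cells of a pair of mice. Samples are called by tissue, genotype and the digit of their label, so the single WT spleen sample is WT spleen sample 2. The study's text counts 6 mice in all, so samples of different genotype or tissue came in part from the same mice, and the labels do not say whether a shared digit marks a shared pool. The tests treat the samples as separate, p-values measure the spread between these samples, and the calls with the digit as a block are given beside the tissue and interaction counts.

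A cell copies its genome once per cycle. In licensing, the origin recognition complex, CDC6 and CDT1 load the MCM helicase onto DNA before S phase. CDC45 and the GINS complex then turn it into a moving helicase, polymerases and primase copy both strands, and the PCNA sliding clamp, opened by replication factor C, holds the polymerases in place. Ribonucleotide reductase, thymidylate synthase and thymidine kinase supply the nucleotides, and most of these genes are targets of E2F transcription factors in cycling cells. Pre-cDCs are cycling cells in BM, and they go on dividing as they seed peripheral tissues.

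Library depth was 17103806 to 23722298 counts. A count of 3, taken as the floor of detection, corresponds to 0.1271 to 0.1795 CPM (counts scaled to library size, TMM normalised), a limit that covers counting error only. Clec9a had 905 to 1766 counts in the WT BM samples and 2459 in the WT spleen sample, against 1 in each DNGR-1 KO BM sample and 0 in both DNGR-1 KO spleen samples, as the labels say. Flt3 and Irf8, taken as markers of pre-cDCs and cDCs, were present in all 9 samples, as was Zbtb46 (185 to 1189 counts). RNA of other cell types differed between tissues. The summed level of 5 erythroid markers was 82.3 to 536 CPM in BM and 5120, 30800 and 9700 CPM in WT spleen sample 2 and DNGR-1 KO spleen samples 1 and 2. Of these markers 3 were higher in spleen by the edgeR test, and 1, Klf1, went the other way. Klf1 had 233 to 5625 counts in the BM samples and 0, 5 and 2 counts in the spleen samples. A set of 9 T and NK markers summed to 16.4 to 46.6 CPM in BM and 773, 1120 and 3730 CPM in spleen, 5 macrophage markers to 3.51 to 16 CPM in BM and 161, 185 and 519 CPM in spleen, and 5 neutrophil markers to 797 to 2470 CPM in BM and at most 0.805 CPM in spleen. Of the neutrophil markers, Mpo had 13857 to 46964 counts in the BM samples, whereas Ly6g had 0 to 19. Summed B cell and plasmacytoid DC markers overlapped between the tissues. The values that differ run parallel to tissue, and their part in the tissue differences given here was not tested.

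**Figure D1:**
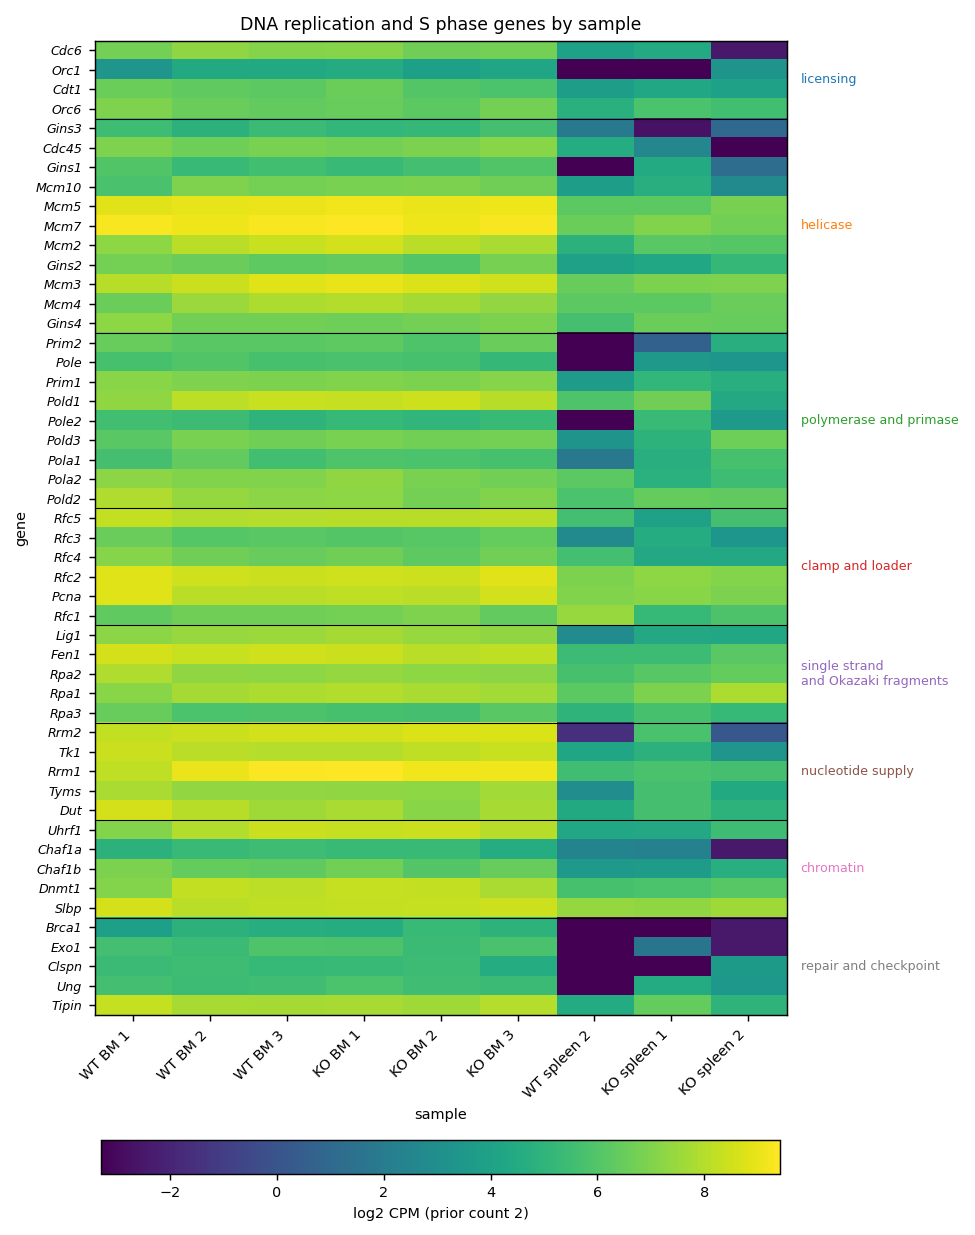
Level of each of the 50 genes (rows, ordered within their role by tissue difference) in each of the 9 samples (columns), as log2 CPM with a prior count of 2. The 6 BM columns are lighter, that is higher, than the 3 spleen columns for 44 of the genes, and the darkest cells are genes at 0 to 2 counts in a spleen sample.

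All 50 genes were well expressed in BM pre-cDCs. Per kilobase of transcript, the scale on which genes can be compared, the highest mean level was that of Dut, which hydrolyses dUTP, at 235 ± 79.4 CPM per kb (SD, n = 6). It was followed by Pcna at 214 ± 46.5, the helicase subunit Mcm7 at 206 ± 16.8 and Tk1, thymidine kinase, at 203 ± 25.9 CPM per kb, and these 4 neighbours lay within each other's spread. Rrm2 (171 ± 20.2), Slbp (170 ± 22.1) and Mcm5 (155 ± 11.8) came next on the same scale. At the low end stood Brca1 at 4.08 ± 1.2, Orc1 at 6.01 ± 1.65, Chaf1a at 6.52 ± 1.38 and Exo1 at 6.53 ± 1.08 CPM per kb, the last 3 again not separated by their spread. The MCM helicase works as a ring with equal parts of each subunit. Its subunits in the list, which does not hold Mcm6, ranged from 52.5 ± 15.6 CPM per kb for Mcm4 to 206 ± 16.8 for Mcm7. In spleen the order was different at the top, where Slbp (91.2 ± 9.49, n = 3) and Pcna (86.4 ± 8.17) led, and Brca1 was last at 0.0043 ± 0.00744 CPM per kb.

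The comparison of tissues asks which of these genes differ between pre-cDCs of spleen and BM whatever their genotype. All 50 had a negative log2 fold change, meaning a lower fitted level in spleen, and 36 of the 50 fell by edgeR's quasi-likelihood test at an adjusted p under 0.05, while 0 rose. Over all 13468 genes tested, 12.3% were lower and 7.28% higher by the same rule. With the digit of the samples as a block 28 of the 50 fell, as did 6.07% of all genes tested, and the calls lost are named below. The median log2 fold change of the 50 genes was -2.52, against -0.18 over all genes tested, and the range ran from -9.56 for Brca1 to -0.22 for Rfc1. Of the 36 genes, 35 also fell by a log2 value of 1 or more, as did 10.9% of all genes tested. In 44 of the 50 genes all 3 spleen samples lay below all 6 BM samples, as in 17.4% of all genes tested. The 6 with overlapping samples were Rfc1, Pola1, Pold3, Pole2, Rpa1 and Rpa3. Summed over the list, the level was 8796 to 9748 CPM in the BM samples, 1863 CPM in WT spleen, and 2394 and 2420 CPM in DNGR-1 KO spleen. In bulk samples, fewer cells in cycle and less RNA per cell cannot be told apart.

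**Figure D2:**
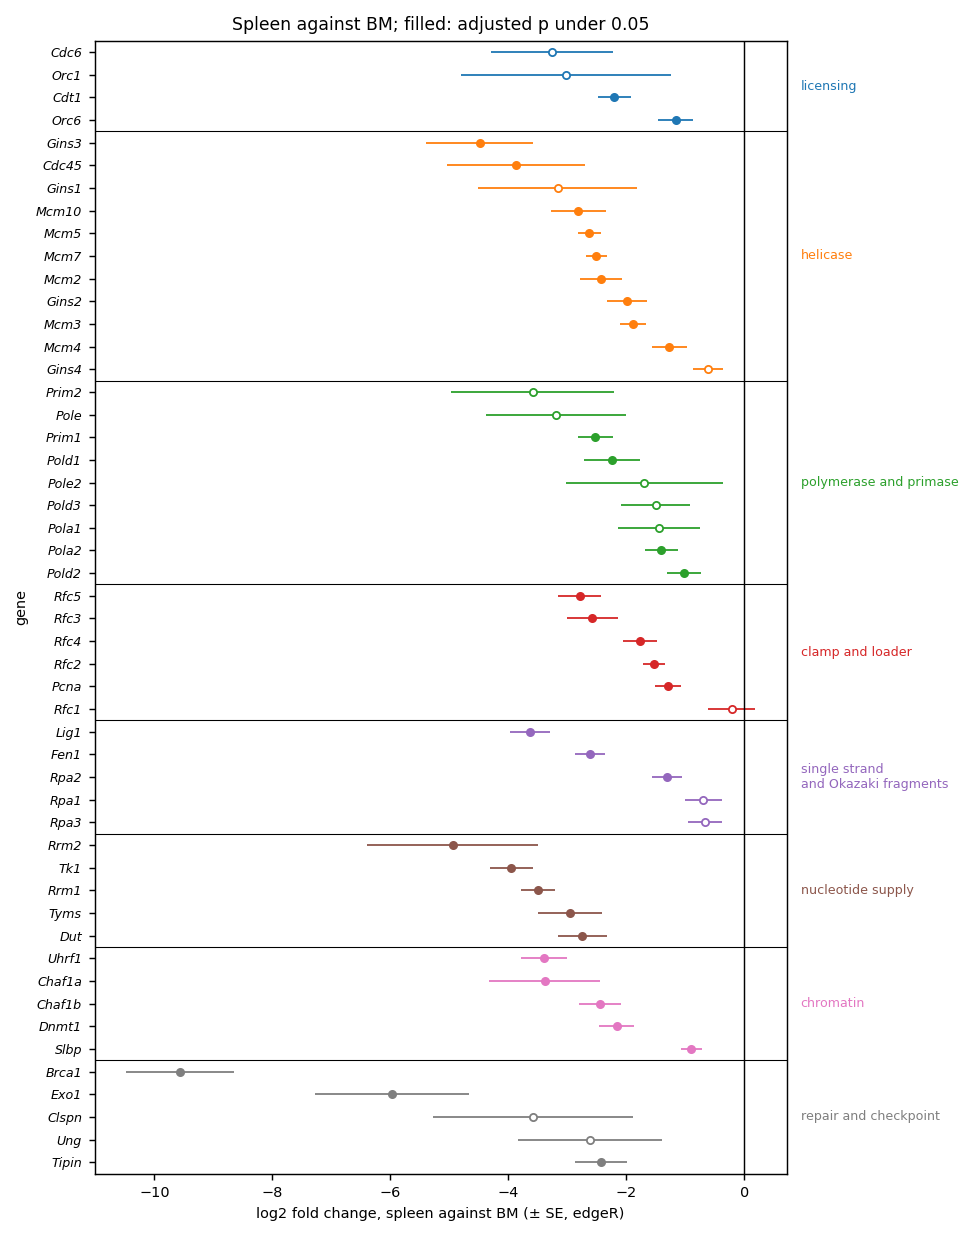
Log2 fold change of each gene in spleen against BM, with its standard error (edgeR, 9 samples, genotype as covariate), grouped and coloured by role. Filled points are the 36 genes at an adjusted p under 0.05, all left of 0, and the 14 open points include genes with wide error bars that were at 0 counts in a spleen sample, such as Orc1, Pole and Ung.

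Among the licensing genes, 2 of 4 fell and the median log2 fold change was -2.61. Cdt1, which brings the helicase to the origin, had 55.8, 77.2 and 95.7 CPM as lowest, median and highest of the 6 BM samples, and 14.2, 20.03 and 15.6 CPM in WT spleen sample 2, DNGR-1 KO spleen sample 1 and DNGR-1 KO spleen sample 2, the order kept from here on. Its log2 fold change was -2.21 (SE 0.28, adjusted p = 0.00104). Orc6, a subunit of the origin recognition complex, had the smallest difference of the group, with 74.2, 90.8 and 125 CPM in BM and 27.5, 56.3 and 47.4 CPM in spleen. It fell by 1.17 on the log2 scale (SE 0.29, adjusted p = 0.0215), and its groups did not overlap. Cdc6, the loading ATPase, had 100.2 to 159.9 CPM in BM, and 15.9 and 22.3 CPM in the first 2 spleen samples but 0.0847 CPM, or 2 counts, in DNGR-1 KO spleen sample 2. With that spread its log2 fold change of -3.26 (SE 1.04) had an adjusted p of 0.0551. The value was -4.53 without DNGR-1 KO spleen sample 1 and -2.71 without DNGR-1 KO spleen sample 2. Orc1, the ATPase subunit of the origin recognition complex, was at 10.2 to 22.7 CPM in BM, at 0 in the first 2 spleen samples and at 9.74 CPM in the last, and did not pass the test either (adjusted p = 0.283).

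The helicase group had 11 genes, of which 9 fell, with a median of -2.51. Mcm7 (chr5:138164583-138172422, minus strand, GRCm38) had the highest BM mean of all 50 genes in CPM, with 544, 624 and 674 CPM in BM and 94.4, 127 and 105 CPM in spleen. Its log2 fold change was -2.51 (SE 0.18, adjusted p = 5.65e-05), the lowest adjusted p of the list. Mcm5 had 459.8, 527.9 and 576.0 CPM in BM and 73.6, 75.1 and 112 CPM in spleen (log2 fold change -2.63, SE 0.19, adjusted p = 6.68e-05). For the other ring subunits in the list, the log2 fold changes were -2.42 (SE 0.36) for Mcm2, -1.89 (SE 0.22) for Mcm3 and -1.27 (SE 0.295) for Mcm4. Each was without overlap between the tissues. Mcm10, a factor that helps to activate the ring, fell by 2.82 (SE 0.47). Differences between subunits were not tested.

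GINS is a complex of 4 proteins in equal parts. Fitted tissue log2 fold changes ran from -4.49 for Gins3 to -0.62 for Gins4, and differences between its subunits were not tested. Gins3 (chr8:95633453-95645060, plus strand) had 29.6, 38.9 and 51.5 CPM in BM and 3.45, 0.0561 and 1.99 CPM in spleen, a log2 fold change of -4.49 (SE 0.91, adjusted p = 0.00847). Gins2 fell by 1.98 (SE 0.34), but 67.3% of its exonic bases lie across from Gse1 on the other strand, and the sources used here do not say whether counting used strand. Gins4 had 99.7, 106 and 152 CPM in BM and 51.3, 93.4 and 87.2 CPM in spleen, where each sample lay below every BM sample, and its log2 fold change of -0.62 (SE 0.25) did not pass the test (adjusted p = 0.118). Gins1 had 38.7 to 63.7 CPM in BM and 0, 22.1 and 2.25 CPM in spleen (log2 fold change -3.17, SE 1.34, adjusted p = 0.132). Cdc45, which joins GINS and the MCM ring in the active helicase, had 99.4, 119 and 142 CPM in BM and 24.1, 5.89 and 0 CPM in spleen, and fell by 3.88 (SE 1.17, adjusted p = 0.046).

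Polymerase and primase genes had the lowest share of calls, with 4 of 9 lower and a median of -1.70. Prim1, the catalytic primase subunit, had 120.5, 128.2 and 145.6 CPM in BM and 12.98, 34.3 and 25.9 CPM in spleen, and fell by 2.53 (SE 0.30, adjusted p = 0.000678). Pold1, the catalytic subunit of polymerase delta, fell by 2.24 (SE 0.48, adjusted p = 0.0106), and its partner Pold2 fell by 1.023 (SE 0.28, adjusted p = 0.0325), the smallest fall of the group. Pola2 of the polymerase alpha complex fell by 1.41 (SE 0.28). The 5 that did not pass were Prim2, Pole, Pole2, Pold3 and Pola1, whose standard errors of 0.58 to 1.38 were larger than those of the 4 that did. Pole, the catalytic subunit of polymerase epsilon, was at 36.2 to 62.7 CPM in BM and at 0, 12.0 and 10.5 CPM in spleen (log2 fold change -3.19, SE 1.19, adjusted p = 0.0904). Pold3 had 71.1, 107 and 117 CPM in BM, and its spleen values of 9.83, 30.5 and 98.7 CPM reached into that range.

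Of the clamp and its loader, 5 of 6 genes fell, with a median of -1.65. Pcna had 276.0, 287.2 and 446.3 CPM in BM and 129.5, 144.3 and 119.7 CPM in spleen, and fell by 1.297 (SE 0.22, adjusted p = 0.00409). Its pseudogene Pcna-ps2 had at most 206 counts in any sample, so reads shared between the copies could be split by the counting. Rfc5 fell most, from 252.6 to 305.8 CPM in BM to 49.5, 15.6 and 51.1 CPM in spleen, a log2 fold change of -2.795 (SE 0.37, adjusted p = 0.00128). Those of Rfc3, Rfc4 and Rfc2 were -2.58, -1.765 and -1.53. Rfc1 (chr5:65261850-65335670, minus strand), the large subunit of the loader, stood apart from the other 4 loader genes, with 80.8, 101 and 123 CPM in BM, 178 CPM in the WT spleen sample, and 37.5 and 57.8 CPM in its DNGR-1 KO counterparts. Its log2 fold change of -0.22 (SE 0.40, adjusted p = 0.767) combined spleen samples on either side of the BM range, and it was 0.18 without DNGR-1 KO spleen sample 1, 0.94 among WT samples alone and -1.14 without the WT spleen sample.

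Of the single-strand binding and Okazaki fragment genes, 3 of 5 fell. Lig1, the ligase that seals Okazaki fragments, had 146.6, 176.8 and 212.0 CPM in BM and 6.97, 20.5 and 20.1 CPM in spleen, and fell by 3.64 (SE 0.34, adjusted p = 0.00021). Fen1, the flap nuclease that acts just before it, fell by 2.62 (SE 0.25, adjusted p = 0.000253), although 78.8% of its exonic bases overlap genes of the other strand. Of replication protein A, which coats single-stranded DNA, Rpa2 fell by 1.31 (SE 0.25, adjusted p = 0.0063). Rpa1 had 143.9, 220.0 and 244.9 CPM in BM and 75.1, 121 and 236 CPM in spleen, and Rpa3 had 51.7, 57.8 and 89.1 CPM in BM and 31.1, 52.1 and 36.8 CPM in spleen. Both overlapped between tissues, and their log2 fold changes of -0.70 (SE 0.31, adjusted p = 0.151) and -0.67 (SE 0.29, adjusted p = 0.136) did not pass the test.

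All 5 genes of nucleotide supply fell, with a median of -3.49, and all 5 had every spleen sample below every BM sample. Rrm1, the large subunit of ribonucleotide reductase, had 293.8, 564.7 and 687.6 CPM in BM and 46.5, 53.7 and 50.1 CPM in spleen (log2 fold change -3.49, SE 0.29, adjusted p = 0.000118). Its small subunit Rrm2 (chr12:24708241-24714146, plus strand) had 307.6, 379.3 and 425.2 CPM in BM and spread widely in spleen, at 0.238, 54.3 and 1.02 CPM. Rrm2 fell by 4.95 (SE 1.45, adjusted p = 0.0415). This call was lost in 7 of the 9 fits without 1 sample and with the digit of the samples as a block. Tk1, which salvages thymidine, had 254.1, 284.0 and 340.4 CPM in BM and 18.2, 28.8 and 10.1 CPM in spleen, and fell by 3.95 (SE 0.36, adjusted p = 0.000185). Tyms, thymidylate synthase, fell by 2.96 (SE 0.54) and Dut fell by 2.75 (SE 0.41), the least of the group.

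The 5 chromatin genes fell as well, with a median of -2.45. With the digit of the samples as a block Chaf1a and Slbp lost the call, and Chaf1a lost it in 7 of the 9 fits without 1 sample. Uhrf1, which reads hemimethylated DNA, had 134.5, 292.8 and 344.1 CPM in BM and 19.1, 20.7 and 44.5 CPM in spleen, and fell by 3.398 (SE 0.39, adjusted p = 0.000623). Dnmt1, the maintenance methyltransferase that it recruits, fell by 2.17 (SE 0.30, adjusted p = 0.00155). Of the histone chaperone CAF-1, Chaf1b fell by 2.45 (SE 0.36) and Chaf1a fell by 3.39 (SE 0.94, adjusted p = 0.0336), though 52.5% of the exonic bases of Chaf1a overlap Ubxn6 on the other strand. Slbp, which binds the stem loop of histone mRNA, changed least, from 271.9, 312.6 and 390.4 CPM in BM to 170.7, 157.5 and 193.3 CPM in spleen. Its log2 fold change of -0.90 (SE 0.18, adjusted p = 0.00776) was the smallest in size to pass the test.

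Repair and checkpoint genes held both lowest values of the list, and 3 of 5 fell, with a median of -3.58. Brca1 (chr11:101488764-101551955, minus strand) had 14.8, 26.9 and 38.1 CPM in BM, and 0, 0 and 2 counts in spleen. Against those 2 counts the BM level was 780-fold higher (95% exact Poisson interval of the spleen count 216 to 6440). The fitted log2 fold change of -9.56 (SE 0.92, adjusted p = 0.000237) depends on the prior count of the fit at such levels. Exo1, a nuclease that resects DNA, had 40.8, 51.9 and 60.9 CPM in BM and 0, 3.03 and 0.0847 CPM in spleen (log2 fold change -5.97, SE 1.297, adjusted p = 0.0117). Tipin, part of the fork protection complex, fell by 2.43 (SE 0.43), from 194.0 to 312.7 CPM in BM to 22.9, 84.8 and 31.9 CPM in spleen. Clspn, the checkpoint mediator, and Ung, the uracil glycosylase, were at 0 in some spleen samples only, and their log2 fold changes of -3.58 (SE 1.70) and -2.62 (SE 1.22) did not pass.

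The calls rest to different degrees on single samples. Of the 36 genes lower in spleen, 22 passed under every one of the 21 alternatives tried. With the digit of the samples as a block 28 fell, as did 6.07% of all genes tested, and Mcm4, Orc6, Cdc45, Pold1, Pold2, Rrm2, Chaf1a and Slbp lost the call, with adjusted p of 0.05136 for Pold1 to 0.135 for Cdc45. Gins2, Gins3, Exo1 and Tipin did not pass in the DNGR-1 KO samples alone, Rfc4 and Pola2 did not in the WT samples alone (a fit with 1 spleen sample, whose spread comes from BM), and each passed under the other alternatives. Of the 36, 31 passed in each of the 9 fits that left out 1 sample. Cdc45, Rrm2 and Chaf1a each lost the call in 7 of these fits, with adjusted p of at most 0.105, 0.0712 and 0.0733, among them the fits without each of the 6 BM samples. Pold2 lost it in 4 (adjusted p up to 0.144, without the WT spleen sample) and Orc6 in 2 (0.0541 without DNGR-1 KO BM sample 3 and 0.0911 without the WT spleen sample). In the other direction, 43 genes were lower without DNGR-1 KO spleen sample 2, as were 14.8% of all genes tested. Added there were Orc1 (adjusted p = 0.000657), Cdc6, Pola1, Pold3, Prim2, Rpa1 and Clspn. Without DNGR-1 KO spleen sample 1, Cdc6 and Gins1 were added, and without the WT spleen sample Pole, Ung and Rfc1 (adjusted p = 0.0342, log2 fold change below 0). With the DNGR-1 KO samples alone 26 genes were lower, as were 6.23% of all genes tested, and with the WT samples alone, that is against 1 spleen sample, 43 were, as were 24.1% of all genes tested. Single spleen samples also moved the fitted fold of 9 of the 36 genes by over 1.5 times. The log2 fold change of Rrm2 was -9.21 without DNGR-1 KO spleen sample 1 and -3.89 without the WT spleen sample, and that of Exo1 was -9.87 and -5.07. Without the same samples it was -3.87 and -5.28 for Gins3 and -3.68 and -2.26 for Tyms. It was -5.44 for Cdc45 without the WT spleen sample and -3.11 without DNGR-1 KO spleen sample 2. Without DNGR-1 KO spleen sample 1 it was -2.84 for Pold1, -4.21 for Chaf1a and -3.09 for Tipin, and without sample 2 it was -12.0 for Brca1.

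Promoters were examined because the genes fell together. RefSeq (GRCm38.p6) has an entry of 300 bases, from 250 before to 50 after the transcription start, for 41 of the 50 genes. The E2F letters searched were TTTCCCGC, TTTCGCGC, TTTGCCGC and TTTGGCGC on either strand, and 16 of the 41 genes (39.0%) hold at least 1, against 2.6% of all 27025 genes with an entry. CCAAT, the letters of NF-Y, were found in 26 of the 41 (63.4%, against 41.1%), and TTTGAA, those of the CHR element of mitotic genes, in 6 of the 41 (14.6%, against 20.2%). None of these motifs contains another. The background was neither limited to the genes tested here nor matched to the list by level or base composition. A match is a description of letters and not a site. Of the 16 genes, 7 are licensing or helicase genes, and the others are Rfc3, Pola1, Pold1, Pold3, Pole2, Lig1, Uhrf1, Dnmt1 and Clspn. Shown for the 7, as the genes that act first, are the 30 bases around the first E2F letters from the 5′ end (all matches in the window in capitals), read 5′ to 3′ along each gene:
Orc1 (chr4:108579416-108579445, + strand): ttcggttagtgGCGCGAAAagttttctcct
Cdc6 (chr11:98908002-98908031, + strand): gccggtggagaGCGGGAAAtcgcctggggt
Cdt1 (chr8:122568035-122568064, + strand): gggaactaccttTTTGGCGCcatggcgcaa
Mcm3 (chr1:20820275-20820304, - strand): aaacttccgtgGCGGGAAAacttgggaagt
Mcm5 (chr8:75109345-75109374, + strand): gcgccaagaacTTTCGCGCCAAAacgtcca
Mcm7 (chr5:138172030-138172059, - strand): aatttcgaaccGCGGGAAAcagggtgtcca
Gins3 (chr8:95633507-95633536, + strand): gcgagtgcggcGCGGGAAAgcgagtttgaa

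In Mcm5 the capitals are 2 overlapping matches, and in the others 1. The letters stand at different distances from the start in these genes, with the first base at -27 in Orc1, -138 in Cdc6, 33 in Cdt1, 20 in Mcm3, -153 in Mcm5, -165 in Mcm7 and -41 in Gins3, counted along the gene from the RefSeq start. Within the list, the 16 genes with a match had a median log2 fold change of -2.54, and 10 of them fell. The 25 without had a median of -2.53, and 21 of them fell. Differences between these groups of genes were not tested. For the ends of the range among the 41 genes with an entry, the 150 bases before the start are given, the 3 with the lowest tissue log2 fold change first and the 3 with the highest last (Exo1, at the low end, and Gins4, at the high end, have no entry), with E2F letters in capitals:
Brca1 (chr11:101551956-101552105, - strand): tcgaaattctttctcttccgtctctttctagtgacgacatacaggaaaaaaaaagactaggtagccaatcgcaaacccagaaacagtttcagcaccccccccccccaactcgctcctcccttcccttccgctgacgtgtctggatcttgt
Rrm2 (chr12:24708104-24708253, + strand): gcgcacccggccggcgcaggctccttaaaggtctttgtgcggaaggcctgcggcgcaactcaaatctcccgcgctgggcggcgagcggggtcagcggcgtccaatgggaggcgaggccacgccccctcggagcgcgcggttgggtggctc
Gins3 (chr8:95633409-95633558, + strand): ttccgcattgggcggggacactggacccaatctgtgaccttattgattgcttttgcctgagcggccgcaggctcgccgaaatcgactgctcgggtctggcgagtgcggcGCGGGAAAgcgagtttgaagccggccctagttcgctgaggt
Rpa1 (chr11:75348384-75348533, - strand): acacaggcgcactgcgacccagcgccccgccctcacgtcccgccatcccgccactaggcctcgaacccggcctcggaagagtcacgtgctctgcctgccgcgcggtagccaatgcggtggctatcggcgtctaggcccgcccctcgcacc
Rpa3 (chr6:8259142-8259291, - strand): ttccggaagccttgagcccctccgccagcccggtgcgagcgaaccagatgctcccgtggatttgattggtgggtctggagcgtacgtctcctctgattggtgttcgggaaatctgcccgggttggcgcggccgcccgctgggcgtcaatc
Rfc1 (chr5:65335640-65335789, - strand): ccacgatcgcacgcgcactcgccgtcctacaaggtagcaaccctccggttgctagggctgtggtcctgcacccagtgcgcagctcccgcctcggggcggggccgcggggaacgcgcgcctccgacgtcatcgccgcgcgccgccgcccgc

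Gins3 has the letters, and the other 5 do not within this window, the low end (Brca1 and Rrm2) as well as the high end (Rpa1, Rpa3 and Rfc1).

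Other genes of DNA synthesis were compared through wider lists. Of 35 further replication factors, 11 fell and 0 rose by edgeR, where 12.3% and 7.28% of all genes tested did. Their median log2 fold change was -1.58. By DESeq2 17 of the 35 fell and 1 rose, where 17.6% and 11.7% of all genes tested did. By limma-voom 16 of the 35 fell and 0 rose, where 16.7% and 8.46% of all genes tested did. Among them Gmnn, which restrains CDT1, fell by 3.13 (SE 0.33), the histone chaperone Asf1b fell by 3.96 (SE 0.41) and the polymerase epsilon subunit Pole3 fell by 2.21 (SE 0.30), while Orc3 (-0.08, SE 0.31) and Orc4 (0.47, SE 0.20) did not pass. Of 17 further genes of nucleotide synthesis, 8 fell and 1 rose, with a median of -1.03. The gene that rose was Samhd1, which breaks down dNTPs, by 1.16 (SE 0.20, adjusted p = 0.00387). All 20 of a list of mitotic genes fell, with a median of -5.44, among them Ccnb1 (log2 fold change -6.06, SE 0.25) and Top2a (-4.33, SE 0.39). Summed, the mitotic genes were at 5690 to 7560 CPM in BM and at 314, 357 and 194 CPM in spleen. Of 10 pre-cDC and cDC markers 1 fell (Irf8, log2 fold change -1.345) and 1 rose (Cd74, 2.14).

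**Figure D3:**
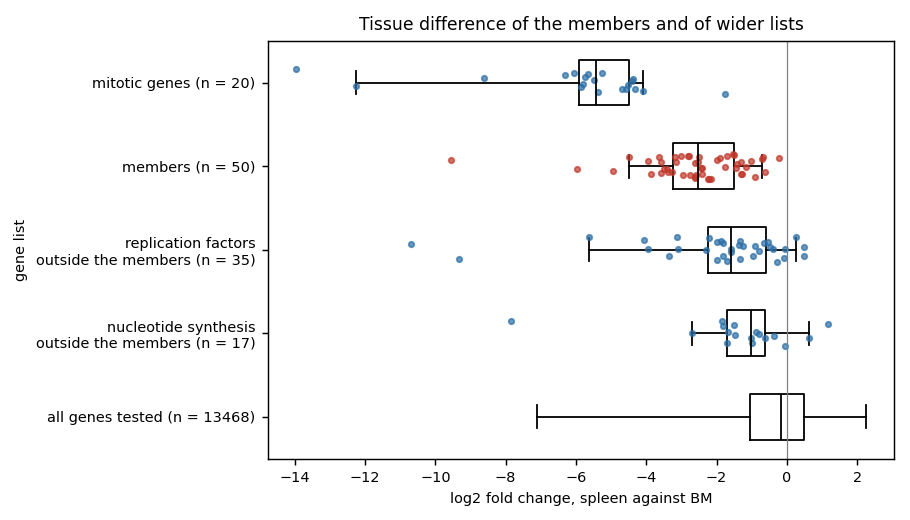
Tissue log2 fold change of the 50 replication genes (red), of 3 wider gene lists (blue) and of all 13468 genes tested. Boxes span the quartiles with the median as a line and whiskers the 5th to 95th percentile, and the medians lie at -2.52, -1.58, -1.03, -5.44 and -0.18 for the 50 genes, the further replication factors, further nucleotide synthesis, mitotic genes and all genes.

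The spleen samples differed in which genes were missing. At or under 3 counts stood 9 of the 50 genes in the WT spleen sample, 4 in DNGR-1 KO spleen sample 1 and 5 in DNGR-1 KO spleen sample 2, and 0 in any BM sample. Among the 6976 genes with a BM mean of at least that of the lowest of the 50, the shares at or under 3 counts were 5.03%, 2.39% and 2.67% in these spleen samples. The 9 genes at 0 in the WT spleen sample were Orc1, Gins1, Pole, Pole2, Prim2, Ung, Exo1, Brca1 and Clspn. In DNGR-1 KO spleen sample 1 Orc1, Brca1 and Clspn were at 0 and Gins3 at 1 count. In DNGR-1 KO spleen sample 2 Cdc45 was at 0, and Cdc6, Chaf1a, Exo1 and Brca1 were at 2 counts each. Brca1 was the only gene at or under 3 counts in all 3. The 13 genes concerned had BM means of 18.1 to 125 CPM (median 46.8), and the other 37 had 58.6 to 609.8 CPM (median 188). Of the 13 genes 5 fell by the tissue test, and of the 37 genes 31 did, with a median of -2.21 for the 37. WT spleen sample 2 also had the fewest genes with a count, 11698, where DNGR-1 KO spleen had 13132 and 13169 and BM 14862 to 18122.

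**Figure D4:**
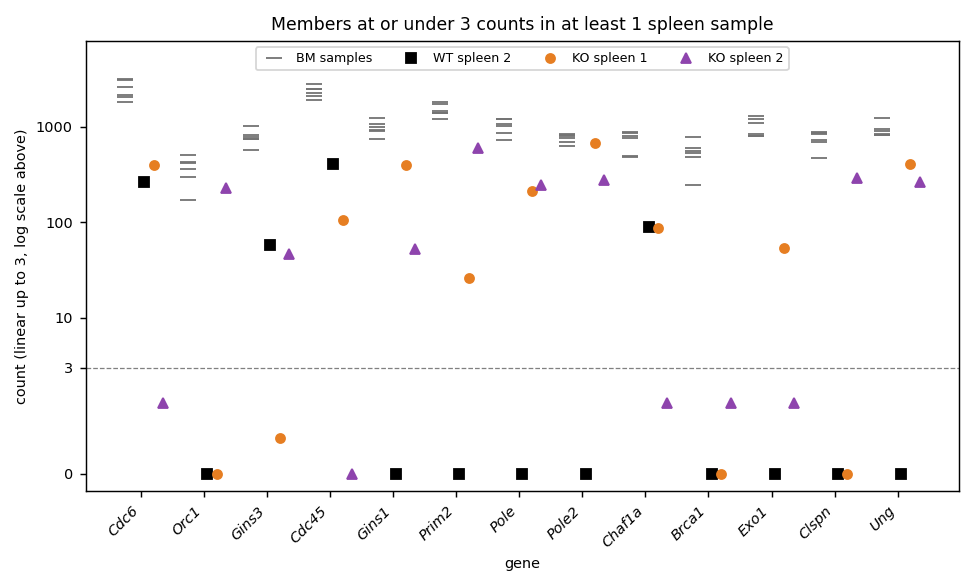
Counts of the 13 genes that were at or under 3 counts in at least 1 spleen sample. Dashes are the 6 BM samples, symbols the 3 spleen samples, and the axis is linear up to 3 counts (dashed line) and logarithmic above, so that Pole2 can be seen at 682 counts in 1 spleen sample and at 0 in another.

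Spleen genotypes were compared without a test, because the WT group is 1 sample. The median log2 difference of the 50 genes between DNGR-1 KO and WT (log2 CPM, prior count 2) was 0.55, and it was 0.49 for DNGR-1 KO spleen sample 1 and 0.63 for sample 2. Over all genes the median was 0.03. Both DNGR-1 KO samples were above the WT sample in 33 of the 50 genes, where 33.1% of all genes were, and both were below in 6, where 28.9% were. In the other 11 they disagreed, or 1 equalled it. By at least 2-fold in both, 11 genes were higher, where 15.1% of all genes were, and 3 were lower, where 7.7% were. The 11 were Mcm2, Gins1, Pola1, Pold3, Pole, Pole2, Prim2, Lig1, Tyms, Rrm2 and Ung, and the 3 were Cdc45, Rfc1 and Rfc4.

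Of the genes averaging 50 or more counts over the spleen samples, and with both DNGR-1 KO samples on one side of the WT sample, those with the highest differences were all measured against 0 counts in the WT sample, so folds are lower bounds against a floor of 3 counts in that library. Pole2 (chr12:69201773-69228195, minus strand), a subunit of polymerase epsilon, had 682 and 275 counts where DNGR-1 was absent, at least 214-fold and 65.2-fold higher. Ung had 405 and 262 counts (at least 127-fold and 62.1-fold) and Pole 214 and 247 counts (at least 67.2-fold and 58.6-fold). Gins1 (394 and 53 counts) and Prim2 (26 and 599 counts) were each present in both DNGR-1 KO samples but at levels far apart, with lower bounds of 124-fold and 12.6-fold for Gins1 and of 8.17-fold and 142-fold for Prim2. All 5 were at 31.9 to 90.5 CPM in every BM sample.

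The lowest differences of that kind were those of Cdc45, Chaf1a, Rfc1, Rfc4 and Pola2. Cdc45 had 24.1 CPM in the WT spleen sample, 5.89 CPM in DNGR-1 KO sample 1 and 0 counts in sample 2, which is at least 190-fold lower. Chaf1a had 5.36, 4.88 and 0.0847 CPM, so that the last alone set its difference, with a ratio of 63.3 (95% exact Poisson interval of the 2 counts 17.5 to 523). The log2 differences from the WT sample were -2.24 and -1.62 for Rfc1, -1.27 and -1.26 for Rfc4, and -1.40 and -0.76 for Pola2. A further 5 genes were at or under 3 counts in some spleen sample and not in others. Orc1 and Clspn were present in DNGR-1 KO sample 2 alone (230 and 294 counts, at least 54.5-fold and 69.7-fold above the WT sample), and Exo1 in DNGR-1 KO sample 1 alone (54 counts, at least 17.0-fold). Gins3 was lower than WT in DNGR-1 KO sample 1 (1 against 58 counts, a ratio of 61.6, interval 11 to 2430), and Cdc6 in sample 2 (2 against 267 counts, a ratio of 188, interval 52.0 to 1550).

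Whether the tissue difference itself differed between genotypes was tested as an interaction over the 9 samples, in which the WT spleen group is a single sample. Its own spread is unknown and was assumed to be that of the other groups, so the p-values hold only under that assumption, and genotype and that library cannot be told apart. Of the 50 genes 7 passed at an adjusted p under 0.05. In 6 the spleen level relative to BM was higher in DNGR-1 KO, namely Pole (adjusted p = 0.00126), Ung (0.00184), Pole2 (0.00269), Pola1 (0.0123), Gins1 (0.027) and Prim2 (0.0468), and in Rfc1 it was lower (log2 value -2.05, SE 0.44, adjusted p = 0.0225). Over all genes tested, 7.05% passed as higher and 1.8% as lower. Of the 7, 5 are genes at 0 counts in the WT spleen sample, and the other two are Pola1, with 3.51 CPM there against 26.4 and 51.9 CPM without DNGR-1 (log2 value 3.58, SE 0.68), and Rfc1. With the digit of the samples as a block 4 of the 7 passed (4.71% of all genes), Pole, Ung, Pole2 and Pola1. The calls also changed with the tool and with single samples. DESeq2 called 15 of the 50 and 16.1% of all genes, limma on the VST values 1 and 3.21%, and limma-voom 0 and 0.0%, where 9 of the 50 had an unadjusted p under 0.05. Without DNGR-1 KO spleen sample 1 edgeR called 14 and 19.2% of all genes, and without sample 2 it called 16 and 17.5%. Gins1 lost its call in 5, Prim2 in 6 and Rfc1 in 4 of the 8 fits without 1 sample, all of them fits without a BM sample, with adjusted p of 0.051 to 0.056, 0.08 to 0.0899 and 0.0527 to 0.0577.

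In BM, where both genotypes have 3 samples, the 50 genes were compared directly. Of the 50, 0 passed by edgeR at an adjusted p under 0.05 and 0 had an unadjusted p under 0.05, as did 3.83% of all 13016 genes tested (0.0154% were called in each direction). DESeq2 and limma-voom also called 0. The log2 fold changes of DNGR-1 KO against WT had a median of 0.00 and ran from -0.53 for Dut to 0.42 for Brca1, 25 of them below 0, with standard errors of 0.19 to 0.35. The lowest adjusted p was 0.861.

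The 5 genes with the lowest unadjusted p were Pold2, Dut, Brca1, Fen1 and Rrm2. Pold2 had 241, 171 and 146 CPM in WT BM samples 1 to 3 and 154, 108 and 130 CPM in DNGR-1 KO BM samples 1 to 3 (log2 fold change -0.51, SE 0.26, adjusted p = 0.861). Dut had 383, 267 and 198 CPM in WT and 228, 144 and 217 CPM in DNGR-1 KO (-0.53, SE 0.29). In both genes WT BM sample 1 was the highest of the 6, and the other samples overlapped. Brca1 had 14.8, 29.2 and 24.7 CPM in WT and 23.8, 38.1 and 30.04 CPM in DNGR-1 KO (0.42, SE 0.31), and Fen1 had 394, 329 and 358 against 336, 272 and 297 CPM (-0.26, SE 0.20). Rrm2 had 308, 340 and 376 CPM in WT and 383, 425 and 413 CPM in DNGR-1 KO, the only 1 of the 50 genes whose DNGR-1 KO samples all lay above the WT samples, as 4.73% of all genes did. Its log2 fold change was 0.25 (SE 0.20, adjusted p = 0.861). In 0 of the 50 did all DNGR-1 KO samples lie below, against 4.79% of all genes. Mcm7 and Mcm5, the most abundant helicase genes, had log2 fold changes of 0.02 (SE 0.20) and 0.14 (SE 0.19).

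WT BM sample 1 stood apart from the other BM samples by transcript length. Its deviation from the mean of the other 5 BM samples fell with the length of the transcript over the 50 genes (Spearman's rho -0.752, a description over genes that share a library), and over 11407 genes rho was -0.469. The median deviation was -0.34 on the log2 scale in the 25 longest (2796 bases or more) and 0.38 in the 25 shortest. Long transcripts that were low there included Rrm1, with 294 CPM against 540 to 688 CPM in the other 5 BM samples, Dnmt1 (132 against 226 to 313 CPM), Mcm2 (154 against 223 to 379 CPM) and Mcm10 (53.8 against 102 to 125 CPM). Short ones that were high included Dut, with 383 CPM against 144 to 267 CPM, and Pold2. In the other BM samples rho over the 50 genes was 0.422, 0.576, 0.498, 0.541 and, for DNGR-1 KO BM sample 3, -0.3. Each of these was taken against the mean of the remaining BM samples, WT BM sample 1 among them, so these values are not independent of that sample. Without WT BM sample 1, the genotype log2 fold changes ran from -0.34 (Cdc6) to 0.24, and 0 of the 50 passed. Uhrf1 moved from 0.36 to 0.08, Mcm4 from 0.30 to 0.01, Pold2 from -0.51 to -0.28 and Dut from -0.53 to -0.24 when it was left out. Over the 50 genes the rho between length and genotype log2 fold change was 0.43 with that sample and -0.265 without it. In the tissue comparison 33 genes were lower without WT BM sample 1, as were 11.3% of all genes tested. Cdc45, Rrm2 and Chaf1a were among the genes that lost the call there.

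**Figure D5:**
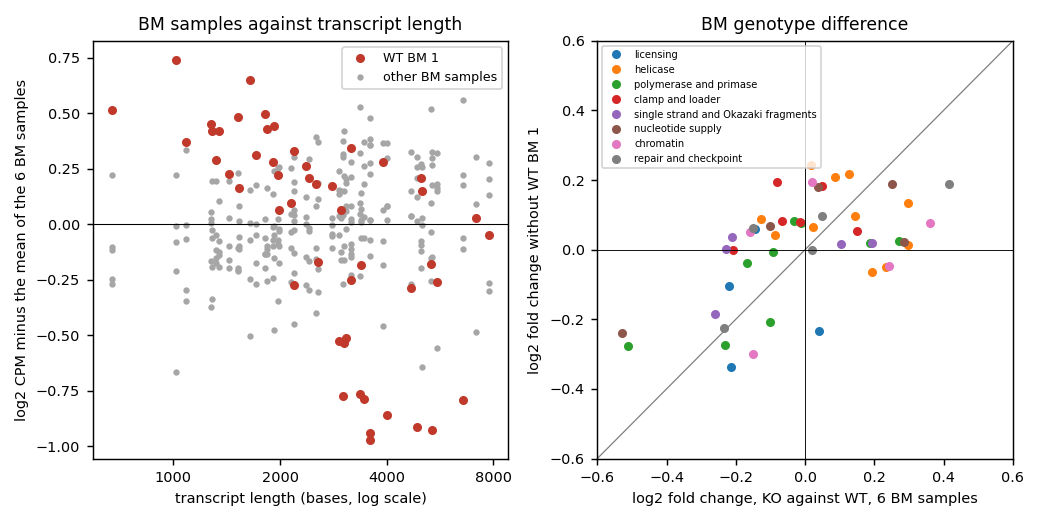
Left, deviation of each of the 50 genes from its mean over the 6 BM samples (log2 CPM) against transcript length (log axis), with WT BM sample 1 in red and the other 5 samples in grey. Right, log2 fold change of DNGR-1 KO against WT in BM with all 6 samples (horizontal) and without WT BM sample 1 (vertical), coloured by role, with the diagonal as a line. The red points run from above 0 for short transcripts to below 0 for long ones, and on the right all values lie between -0.53 and 0.42.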

How the data were processed

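The authors deposited expected counts (RSEM 1.3.0 on STAR 2.5.2 alignments to GRCm38, after Trimmomatic 0.36, per the submitters' processing notes) for 51912 genes, with 25.6% of the values above 0 not whole, and variance-stabilised log2 values for 20810 genes. The strand setting of the counting is not given in the sources used here. Expected counts were rounded, and edgeR 4.0.16 in R 4.3.3 gave the tests (quasi-likelihood, TMM, filterByExpr, Benjamini-Hochberg adjustment over all genes tested, threshold 0.05). The filter was by tissue where both tissues entered the fit and by genotype within BM. Tissues were fitted over 9 samples with genotype as covariate, BM genotypes over 6 samples, and the interaction over 9. The standard error comes from the F statistic. DESeq2 1.42.0, limma 3.58.1 (voom, and on the VST values), other scalings and filters, a replicate block, a score of 122 genes of the chromosome 1 congenic interval as covariate in BM, and fits without each sample were alternatives. Spleen genotypes were compared by log2 CPM differences (prior count 2). The scripts were tested on simulated data.

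The 50 genes, the wider lists, the roles and the tests were chosen with earlier results of these data known. Genes were named by rule: by role, the lowest and highest tissue log2 fold change, the 5 lowest and 5 highest of all, the 5 lowest p in BM where no gene passed, the 5 highest and 5 lowest spleen differences of 1 sign where the spleen mean reached 50 counts, every gene at or under 3 counts in a spleen sample, and every gene past the interaction test. Others named show the range of their group. Replicates differed by a chi-square of 28.9 to 257 per gene, far above sampling noise.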

Additional observations from a re-analysis of the deposited data

Results flagged for a closer look

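Of the 50 genes 7 passed the interaction test of edgeR between tissue and genotype, where 7.05% of all genes tested passed as higher and 1.8% as lower, while limma-voom called 0 of the 50 and 0.0% of all genes, limma on VST values 1 and 3.21%, and DESeq2 15 and 16.1%. The WT spleen group is 1 sample, whose spread was assumed to be that of the other groups, so genotype and that library cannot be told apart. The adjusted p was 0.00126 for Pole, 0.00184 for Ung, 0.00269 for Pole2, 0.0123 for Pola1, 0.0225 for Rfc1, 0.027 for Gins1 and 0.0468 for Prim2. All 7 rest on the single WT spleen sample, where Pole, Ung, Pole2, Gins1 and Prim2 had 0 counts, Pola1 had 3.51 CPM and Rfc1, at 178 CPM, was above every BM sample. In both DNGR-1 KO spleen samples the first 6 were present and Rfc1 was lower, at 37.5 and 57.8 CPM. Without the WT spleen sample the term could not be fitted. That sample also had the fewest genes with a count, 11698, and the part of this in the 7 results was not tested.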

How the results depend on the processing

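The count of genes lower in spleen, 36, was 28 to 43 under the other tools, scalings and filters and with a replicate block (28). Of all genes tested, 6.07% (with the block) to 17.6% (by DESeq2) were lower under these settings. When 1 sample was left out the count was 31 to 43, where 8.89% to 14.8% of all genes were lower. It was 26 in DNGR-1 KO samples alone (6.23% of all genes) and 37 without the genotype covariate (14.8% of all genes), with 0 higher in each of these fits. In WT samples alone, with 1 spleen sample, the median log2 fold change of the 50 genes was -3. In BM the count stayed at 0 under each alternative. The tissue log2 fold change of Rfc1, which did not pass in the main comparison, was 0.18 without DNGR-1 KO spleen sample 1, 0.94 in WT samples alone and -1.14 (adjusted p = 0.0342) without the WT spleen sample, and the cause was not tested. The interaction count, 7, depended on the tool and on single samples: it was 15 by DESeq2, 0 by limma-voom, 1 by limma on VST values, 4 with the replicate block, and 4 to 16 without 1 sample (16 without DNGR-1 KO spleen sample 2), for causes that were not tested. The median spleen genotype difference of 0.55 was 0.49 to 0.63 under each alternative. A filter by the 4 groups, counts at or under 3 set to 3, and the genes above 3 counts in every spleen sample are alternatives chosen after seeing the data.

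Same-numbered WT and DNGR-1 KO BM samples had deviations that correlated at 0.103, 0.0989 and -0.0815 over genes, so over all genes the digits did not deviate together in every pair, and the fits without a block were kept as main. S100a8 was close within each digit, at 2995 and 3297, 227 and 293, and 831 and 818 counts in WT and DNGR-1 KO BM samples 1, 2 and 3, as was S100a9, and both genes were chosen after their values were seen. Whether digits mark shared pools was not tested further. Depth limits genes near 3 counts, and the 3 spleen samples limit the tissue comparison for genes that were absent in 1 of them.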

Other observations

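The wider lists of DNA synthesis and mitosis held no gene that passed between genotypes in BM by edgeR at an adjusted p under 0.05. Of 35 further replication factors, 17 further genes of nucleotide synthesis and 20 mitotic genes, 0 passed and 0 had an unadjusted p under 0.05, and the median log2 fold changes were 0.03, -0.09 and 0.11. By DESeq2 and by limma-voom 0 genes of these lists passed as well, and 0 and 2 of them had an unadjusted p under 0.05. By edgeR 4 of the mitotic genes were below 0 and the others above, where 6562 of all 13016 genes tested were below 0. Summed, the mitotic genes were lowest in WT BM sample 1, at 5690 CPM against 6190 to 7560 CPM in the other BM samples. The direction over the list was not tested.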
